A study of Mus musculus with 2 samples.

Results

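General markers of myeloid and dendritic cells were examined in naive CD8+ T cells that lack the transcription factor Bcl11b. The markers were 10 genes: Csf1r, Itgax, Itgam, Lyz2, Sirpa, Cd14, Cd68, Cst3, Ly86 and Fcgr3. Every gene spot that carried one of these names on the array was taken, with Lyz2 also under its older name Lyzs, which gave 18 of 41174 gene probes. Of the 10 genes, 8 were measured, each by 1 probe, among 9281 measured genes in all. A gene was measured when a probe was well above background, by the scanner software's call, in the same genotype on both arrays.

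Knockout cells came from Bcl11bF/F/dLck-iCre mice, in which floxed Bcl11b is excised by an iCre recombinase under the distal Lck promoter, active late in T cell development. Wild-type cells came from wild type mice, and both genotypes were of the C57BL/6 strain. From each, CD8+ T cells with low CD44 and low CD25 were sorted to a purity above 90%. Knockout RNA carried Cy5 and wild-type RNA Cy3 on each of 2 arrays, giving 1 group of log2 ratios (knockout over wild type, n = 2). Dye and genotype cannot be told apart, because no array had the dyes swapped. By the labels the arrays are biological replicates, and no label gives the number, age, sex or pooling of mice. The p-values therefore cover only the spread between these 2 arrays, pooled into a standard error shared by all genes. They do not measure the spread of a single gene.

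Myeloid cells include monocytes, macrophages, granulocytes and conventional dendritic cells, which take up particles, sense microbes and present antigen. The markers cover several of these functions: a growth factor receptor (Csf1r), integrin chains of complement receptors (Itgax and Itgam), an inhibitory receptor (Sirpa), parts of endotoxin receptors (Cd14 and Ly86), lysosomal and secreted proteins (Lyz2, Cd68 and Cst3) and a low-affinity antibody receptor (Fcgr3). None is a T cell lineage gene, but several are not restricted to myeloid cells. Mouse natural killer (NK) cells carry the products of Itgam, Itgax and Fcgr3, activated CD8+ T cells can carry that of Itgax, B cells express Ly86, and Cst3 is expressed in most tissues.

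Of 43379 gene spots on an array, between 10739 and 17276 were well above background per sample. Bcl11b itself was at 3338 and 4219 in knockout samples of arrays 1 and 2, against 9135 and 13960 in wild-type samples (normalised intensity, a linear unit after dye and array normalisation). Its log2 ratios were -1.45 and -1.73, and a second probe gave -0.35 and -2.32. Bcl11b did not pass the adjusted p threshold that is used below for the markers (limma). Its mean log2 ratio of -1.59 was smaller in size than the smallest passing mean, 1.68. Whether either probe lies in the excised part is not given in the sources used here. The T cell list (15 genes, Cd3e and Cd8a among them) was measured in full, and 14 of its genes were well above background on both arrays in knockout and 14 in wild type. Samples differed in sex-linked genes: the Y-linked genes Eif2s3y and Ddx3y passed the background call in knockout on array 1 and in wild type on array 2, whereas Xist passed it only in knockout on array 2.

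Most measured markers were higher in knockout cells, but by different amounts on the 2 arrays. Csf1r, Itgax, Sirpa, Ly86 and Lyz2 passed adjusted p 0.05 upwards, so 5 of 8 measured markers rose, against 1.24% of all measured genes (115 of 9281; limma over all genes, Benjamini-Hochberg). The count was 2 with median centring in place of loess, and 0 with no background correction, with the scanner software's ratios, with equal spread on both arrays or with no filter on dim probes. Lyz2, 1 of the 5, had a log2 ratio of -0.38 on array 2. None of the 8 fell, against 0.248% of all genes, and 1.49% of all genes passed in either direction. Above 0 on both arrays were 6 of 8, against 30.9% of all genes. Fcgr3, Cst3 and Cd14 did not pass, and Cd68 and Itgam were not measured. In bulk RNA of sorted cells, more cells of a type and more RNA per cell cannot be told apart.

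The way a gene came to be measured bears on these counts. Csf1r, Itgax, Lyz2, Sirpa, Ly86 and Fcgr3 were measured only through the knockout samples, that is, their wild-type samples alone would not have met the condition; this holds for 19.3% of all measured genes. Such genes had to be bright in knockout, so their count and median describe them and support nothing. The same holds where their samples are said not to overlap between genotypes. The share of all measured genes so separated was not counted. Cd14 was measured only through wild type, as were 14.7% of measured genes, and Cst3 through both genotypes, as were 66.0%. Among the 18 probes, 8 were well above background in knockout on array 1 and 8 on array 2 (44.4% each), against 2 (11.1%) and 5 (27.8%) in wild type. Over all gene probes the shares were 39.6% and 24.9% in knockout, against 24.6% and 30.7% in wild type. Array 1 thus detected more probes in knockout over the whole array, and array 2 more in wild type.

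**Figure D1:**
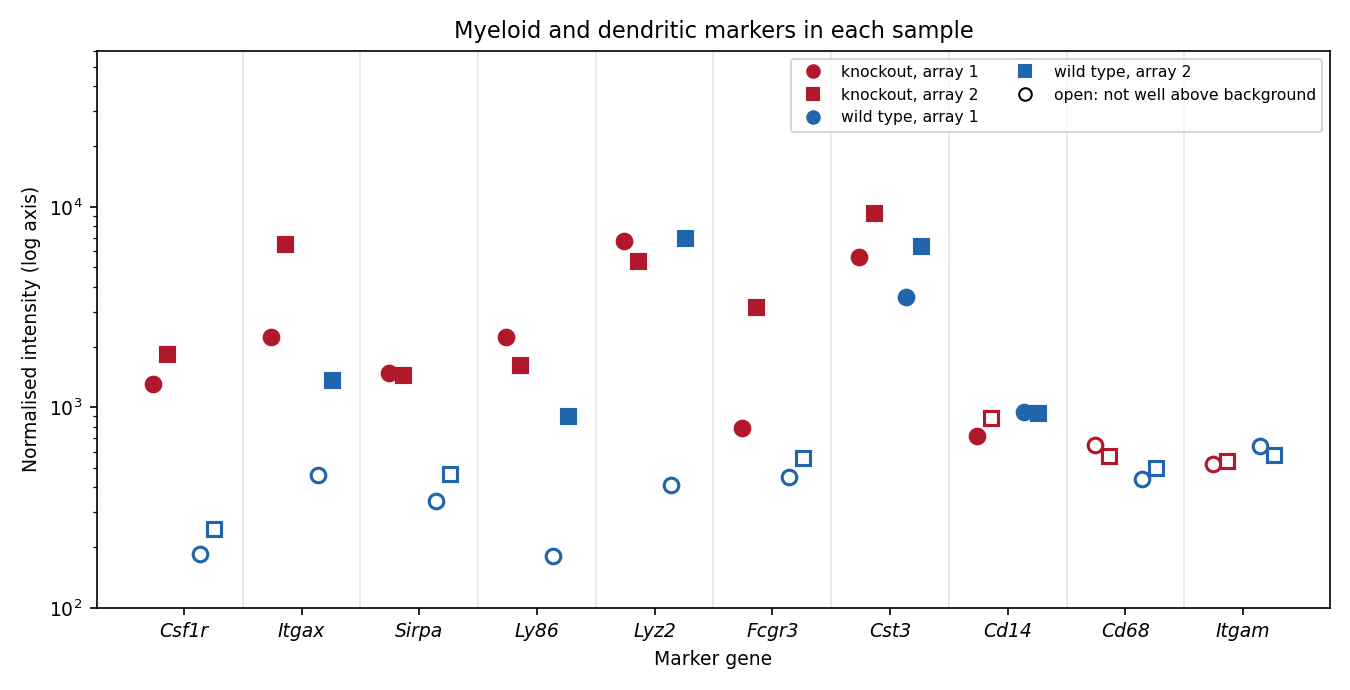
Normalised intensity (log axis) of the standing probe of each of the 10 markers in the 4 samples; red is knockout, blue wild type, circles array 1, squares array 2, and open symbols were not well above background. For Cd68 and Itgam, which were not measured, the brightest probe is drawn. Among measured markers, both knockout points of Csf1r, Itgax, Sirpa, Ly86 and Fcgr3 lie above both wild-type points. All of these were measured only through knockout, and the share of all genes so separated was not counted.

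The median log2 ratio of the 8 measured markers was 1.85, with 2.20 on array 1 and 1.25 on array 2, against 0.04, 0.05 and -0.01 for all measured genes. On array 1, 5 of 8 were over 2-fold higher in knockout (21.1% of all genes), and on array 2 it was 4 of 8 (1.96% of all genes). Csf1r, Itgax and Sirpa met this on both arrays, as did 1.12% of all genes. Lyz2 and Ly86 met it on array 1 and not on array 2, and Fcgr3 on array 2 and not on array 1.

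**Figure D2:**
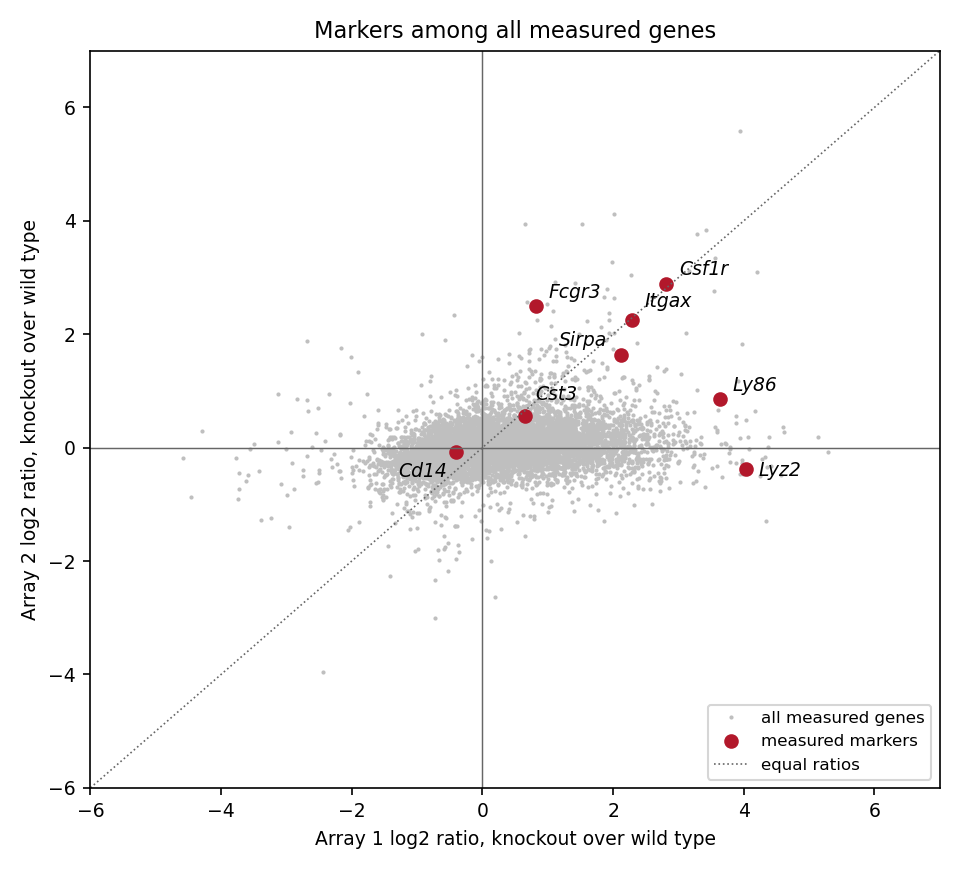
Log2 ratio, knockout over wild type, on array 1 (x axis) and array 2 (y axis) for all 9281 measured genes (grey) and the 8 measured markers (red); the dotted line marks equal ratios. Csf1r, Itgax and Cst3 lie close to the line, Ly86 and Lyz2 far to its right and Fcgr3 above it.

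The stretches of 250 bases before the gene start are shown for the markers that were measured only through the knockout samples and have a promoter entry in the RefSeq table (GRCm38.p6). Sirpa and Csf1r are named only. Macrophage genes are known targets of the ETS factor PU.1, so the letters GAGGAA and GGAAGT were searched on both strands; the motifs share GGAA and can overlap. Capitals mark a match on either strand, and sequences run 5′ to 3′ on the gene's strand.
Itgax, chr7:128129300-128129549, plus strand: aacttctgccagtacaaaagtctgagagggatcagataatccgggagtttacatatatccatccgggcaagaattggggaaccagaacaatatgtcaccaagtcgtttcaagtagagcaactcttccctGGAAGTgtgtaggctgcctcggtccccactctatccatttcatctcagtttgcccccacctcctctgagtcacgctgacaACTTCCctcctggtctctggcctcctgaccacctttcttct
Lyz2, chr10:117282273-117282522, minus strand: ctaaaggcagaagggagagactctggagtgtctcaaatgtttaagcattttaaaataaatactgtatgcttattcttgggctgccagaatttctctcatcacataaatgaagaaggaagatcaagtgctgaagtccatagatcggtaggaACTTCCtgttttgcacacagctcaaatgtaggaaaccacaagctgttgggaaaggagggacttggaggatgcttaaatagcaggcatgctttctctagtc
Ly86, chr13:37345095-37345344, plus strand: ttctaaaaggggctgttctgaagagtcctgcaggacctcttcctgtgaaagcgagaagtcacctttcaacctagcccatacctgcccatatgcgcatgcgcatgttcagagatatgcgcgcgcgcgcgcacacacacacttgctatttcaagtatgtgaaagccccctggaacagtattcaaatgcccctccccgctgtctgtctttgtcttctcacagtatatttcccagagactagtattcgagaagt
Fcgr3, chr1:171059404-171059653, minus strand: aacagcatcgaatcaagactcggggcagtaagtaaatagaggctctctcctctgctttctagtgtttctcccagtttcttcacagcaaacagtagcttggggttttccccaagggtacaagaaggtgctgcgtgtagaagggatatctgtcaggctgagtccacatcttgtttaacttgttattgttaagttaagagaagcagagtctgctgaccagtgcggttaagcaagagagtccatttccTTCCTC
The promoter of Itgax held GGAAGT on the strand of the gene 121 to 116 bases before the start and on the opposite strand 41 to 36 bases before it. Lyz2 held it on the strand opposite the gene 100 to 95 bases before the start. Fcgr3 held GAGGAA on the strand opposite the gene in the last 6 bases, and Ly86 held neither. Of 7 markers with a promoter entry, 6 held at least 1 of the motifs, as did 36.8% of 27025 promoters in the table. GAGGAA was held by 4 of the 7 (Cd68, Cst3, Fcgr3 and Itgam), against 23.1% of promoters. Of these, Cst3 and Fcgr3 did not pass, and Cd68 and Itgam were not measured. GGAAGT was held by 2 of the 7 (Itgax and Lyz2), against 20.0%. A match is a run of letters and not a shown binding site. Spi1, which encodes PU.1, was not well above background in any sample, at 231 and 287 in knockout against 337 and 340 in wild type. Its single probe lay below the median of the negative control spots in every sample, so it does not show whether Spi1 was expressed.

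Csf1r, the shared receptor of interleukin 34 and macrophage colony-stimulating factor, was at 1304 and 1843 in knockout samples of arrays 1 and 2, against 185 and 248 in wild-type samples. Both knockout samples were well above background, neither wild-type sample was, and the groups did not overlap. The log2 ratios were 2.82 and 2.89, a mean of 2.85 ± 0.05 (SD, n = 2; limma adjusted p = 7.20e-06). Because wild type has only an upper bound here, Csf1r was at least 2.02-fold higher in knockout: each "at least" value sets the knockout mean against the lowest wild-type signal that counts as well above background on each array, or against the gene's own signal where that is higher. Both other Csf1r probes were not well above background in any sample and gave -0.10 and -0.11, and 0.22 and 0.56.

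Few genes that act with Csf1r were measured, and most of those did not pass. Of 10 myeloid growth factor receptors and ligands, 3 were measured and none passed in either direction (median log2 ratio 0.13). Il34, a ligand of Csf1r, was at 769 and 875 in knockout against 1113 and 1059 in wild type, with log2 ratios of -0.53 and -0.27. Of 12 myeloid and dendritic transcription factors, 6 were measured and none passed (median 0.22): Cebpb had log2 ratios of 0.78 and 0.73, Irf8 of 0.78 and 0.56, and Batf3 of 0.36 and 0.68. Of 15 other macrophage surface receptors, 12 were not measured, among them Cd163, Mrc1, Mertk and Cx3cr1. The other 3 were above 0 on both arrays, and 1 of them rose. That gene was Adgre1, which encodes an adhesion-type receptor used as a macrophage marker. It was at 3767 and 2335 in knockout against 204 and 273 in wild type, at least 3.86-fold higher (log2 ratio 3.65 ± 0.79, SD, n = 2; adjusted p = 6.48e-10), while its second probe, not above background anywhere, gave 0.04 and 0.10.

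Itgax encodes CD11c, the integrin alpha chain most used to mark dendritic cells, and as reported it had the most even ratios of the markers. It was at 2250 and 6519 in knockout samples, against 461 and 1364 in wild-type samples, all but the wild-type sample of array 1 well above background. Every knockout sample exceeded every wild-type sample. The log2 ratios were 2.29 and 2.26 (2.27 ± 0.02, SD, n = 2; limma adjusted p = 0.0014), a 4.83-fold difference that rests on a dim wild-type channel on array 1. The probe lies at chr7:127941686-127941745 (mm8, plus strand). A second probe was not well above background in any sample and gave -0.12 and 0.55.

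Itgam encodes CD11b, the alpha chain of macrophages, granulocytes and NK cells, next to Itgax on chromosome 7. Neither of its probes was well above background in any sample. One read 519 and 540 in knockout against 641 and 579 in wild type, with log2 ratios of -0.31 and -0.10, and the other 558 and 534 in knockout against 475 and 451 in wild type, with 0.23 and 0.25. The probes thus differed in sign, and at this signal a difference was not detectable. Among partners and ligands of these integrins, 6 of 7 were measured and none passed (median -0.03). Itgb2, the beta chain that pairs with CD11c, CD11b and the T cell integrin chain Itgal, was at 10603 and 14743 in knockout against 9256 and 12607 in wild type. Its log2 ratios were 0.20 and 0.23. Itgal gave 0.10 and 0.46 and Fermt3, an integrin activator, -0.14 and -0.01.

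Sirpa encodes an inhibitory receptor of macrophages and a subset of dendritic cells that binds CD47. It was at 1477 and 1449 in knockout samples, against 339 and 465 in wild-type samples. Neither wild-type sample exceeded background and the groups did not overlap. Array 1 gave a log2 ratio of 2.12 and array 2 one of 1.64 (1.88 ± 0.34, SD, n = 2; limma adjusted p = 0.0170), and the difference was at least 1.90-fold. The probe lies at chr2:129323574-129323633 (mm8, plus strand). The other probes gave -0.14 and -0.19, and 0.22 and 0.22, none well above background. Of 6 ligand and effector genes, 5 were measured and none passed (median 0.48): Cd47 had log2 ratios of 1.12 and 0.60, the adaptor Skap2 of 0.41 and 0.70, and the phosphatase Ptpn11 of 0.29 and 0.06.

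Ly86 encodes MD-1, the partner of the receptor CD180 on B cells, dendritic cells and macrophages. It was at 2251 and 1629 in knockout samples, against 181 and 903 in wild-type samples. Wild type was well above background on array 2 only, and the groups did not overlap. Its log2 ratios were 3.64 and 0.85 (2.24 ± 1.97, SD, n = 2; limma adjusted p = 0.00163): both were above 0, and the size of the mean rests on array 1. Its single probe lies at chr13:37426298-37426357 (mm8, plus strand).

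Cd14, the co-receptor that hands endotoxin to Tlr4, was the 1 measured marker with ratios below 0 on both arrays. It was at 718 and 884 in knockout samples, against 946 and 934 in wild-type samples, and the knockout sample of array 2 was not well above background. Its log2 ratios were -0.40 and -0.08 (-0.24 ± 0.22, SD, n = 2; adjusted p = 0.950), so it did not pass. Of 11 endotoxin sensing genes, 2 were measured and neither passed (median 0.43). Myd88, the adaptor of most Toll-like receptors, gave 0.50 and 0.07. Tlr4, its partner Ly96 and Cd180, the partner of Ly86, were not measured.

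Lyz2, the lysozyme gene of macrophages and granulocytes, had opposite signs on the arrays. It was at 6721 and 5344 in knockout samples, against 410 and 6963 in wild-type samples. The wild-type sample of array 2 was the highest of the 4, and that of array 1 was not well above background. The log2 ratios were 4.03 and -0.38 (1.83 ± 3.12, SD, n = 2; limma adjusted p = 0.0227), so the call rests on array 1 alone; without array 1 the ratio is -0.38. A second Lyz2 probe was not well above background anywhere and gave -0.26 and -0.24. A probe for Lyz1, the lysozyme of intestinal Paneth cells, is listed by the array design against both lysozyme genes; it was at 988 and 944 in knockout against 866 and 1003 in wild type, with ratios of 0.19 and -0.09. The standing Lyz2 probe lies at chr10:116681504-116681563 (mm8, minus strand).

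Cd68, a membrane protein of macrophage lysosomes, was not well above background in any sample. It read 645 and 568 in knockout samples, against 439 and 498 in wild-type samples, and the log2 ratios were 0.56 and 0.19. A difference was not detectable at this signal. Cst3 encodes cystatin C, a secreted inhibitor of cathepsins that is abundant in dendritic cells, and it was the 1 marker well above background in all 4 samples. It was at 5594 and 9345 in knockout samples, against 3557 and 6378 in wild-type samples. On each array knockout was higher, and across arrays the groups overlapped. The log2 ratios were 0.65 and 0.55 (0.60 ± 0.07, SD, n = 2; adjusted p = 0.834), a 1.52-fold difference that did not pass. Of 16 lysosomal proteases, inhibitors and membrane proteins, 14 were measured and none passed (median 0.21). The membrane protein Lamp2 gave 2.26 and 0.66, the protease Ctsb 1.54 and 0.42, and the cholesterol carrier Npc2 -0.59 and -0.48.

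Fcgr3 encodes CD16, the low-affinity IgG receptor of macrophages, granulocytes and NK cells, and differed most on array 2. It was at 788 and 3152 in knockout samples, against 448 and 558 in wild-type samples. Neither wild-type sample was well above background, and the groups did not overlap. Log2 ratios of 0.81 and 2.50 resulted (1.66 ± 1.19, SD, n = 2), at least 2.05-fold higher, with limma adjusted p = 0.0551, just outside the threshold; the smallest passing mean was 1.68. A second probe gave 0.36 and 1.31 and was well above background in knockout on array 2 alone. The standing probe spans chr1:172888191-172888266 (mm8, minus strand).

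Fcgr3 signals through the gamma chain that Fcer1g encodes. Fcer1g rose and was at 7307 and 42125 in knockout, against 474 and 879 in wild type, at least 20.9-fold higher (log2 ratios 3.95 and 5.58, adjusted p = 4.98e-18), and a second probe gave 1.45 and 4.14. Tyrobp, a related signalling chain of myeloid and NK cells, rose with ratios of 1.52 and 3.94 (2.73 ± 1.71, SD, n = 2; adjusted p = 2.84e-05). Of 9 Fc receptor genes and their signalling chains, 6 were measured, these 2 rose and none fell (median 0.78). Fcgr2b, the inhibitory IgG receptor and a close relative of Fcgr3, gave 0.15 and 0.48. Of 13 close relatives of the markers, 3 were measured and none passed (median 0.28).

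In 4 of the 5 measured markers with several probes, 1 probe carried the difference. The other probes of Csf1r, Itgax, Sirpa and Lyz2 were not well above background in any sample and lay between -0.26 and 0.56. Both probes of Fcgr3 gave ratios above 0 on both arrays, larger on array 2. In all 5 genes the standing probe, the brightest kept one, was the one nearest the 3′ end by the design's coordinates. Over 4646 measured genes with at least 2 located probes this held for 59.9%. The knockout signal of Csf1r, Itgax, Sirpa and Lyz2 therefore rests on 1 stretch of each transcript.

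**Figure D3:**
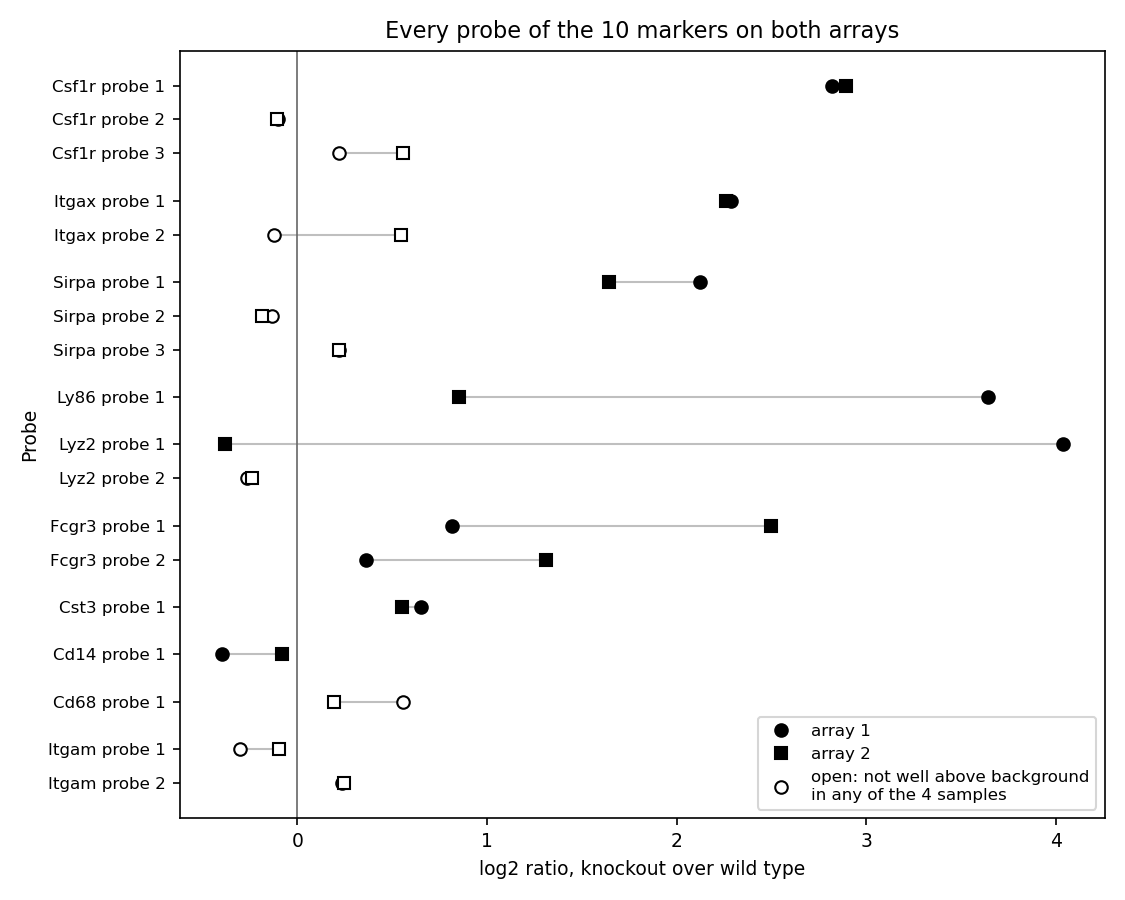
Log2 ratio, knockout over wild type, of all 18 probes of the 10 markers on array 1 (circles) and array 2 (squares); open symbols mark probes not well above background in any of the 4 samples. Probe 1 of Csf1r, Itgax, Sirpa and Lyz2 stands apart from the other probes of its gene on at least 1 array.

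In the dim wild-type samples, signals lay below the level of the array's negative controls. The negative control spots had normalised medians of 527 and 604 in knockout, against 601 and 591 in wild type. On array 1, wild-type Csf1r, Itgax, Lyz2, Sirpa, Ly86 and Fcgr3 were all under that median, at 181 to 461. On array 2 the same held for Csf1r, Sirpa and Fcgr3, at 248 to 558. Over all genes with the same pattern of detection, the median ratio on array 1 was also above 0. Itgax, Ly86 and Lyz2 belonged to 1623 genes well above background in knockout on both arrays and in wild type on array 2 only, whose median log2 ratios were 1.22 on array 1 and 0.08 on array 2. Csf1r, Sirpa and Fcgr3 belonged to 150 genes (1.62% of measured genes) so detected in knockout and in wild type on neither array, with medians of 1.11 and 0.81. Of the 1623 genes 3.70% rose, and of the 150 genes 17.3%. The opposite pattern, wild type on both arrays and knockout on neither, held for 2.09% of measured genes and for no marker.

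Marker lists of other cells were read beside these genes. Of 13 dendritic cell markers, 5 were measured and none passed (median 0.52), with Cd83 at 1.23 and 0.85, and Xcr1, Clec9a, Siglech and Flt3 were not measured. Of 12 genes of MHC class II presentation, 8 were measured and none passed (median 0.60): the invariant chain Cd74 gave 1.25 and 0.68, H2-DMb1 1.40 and 0.40, and H2-Oa -0.59 and -0.37. Of 16 granulocyte and monocyte markers, 6 were measured and none passed (median -0.07). Ly6c1, which CD8+ T cells also express, gave -0.97 and -1.15, the granule enzyme Mpo -0.43 and -0.32, and the chemokine receptor Cxcr2 -0.48 and -0.15. The genes Camp, Ltf, Ngp and Elane, made in granulocyte precursors, were not measured.

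Of 12 NK cell markers, 9 were measured, 4 rose, 5 did not pass and none fell (median 0.98). Their median log2 ratio was 0.81 on array 1 and 1.16 on array 2. The 4 were Fcer1g, Tyrobp, the receptor Cd244a (3.42 and 3.84, at least 6.73-fold higher, adjusted p = 6.76e-10) and Klrb1c, which encodes NK1.1 (2.02 and 4.12, adjusted p = 6.08e-07). Summed over the measured genes, NK markers were at 73052 and 152746 in knockout, against 35095 and 34520 in wild type. In wild type Fcer1g gave 474 and 879 of this, Tyrobp 1913 and 1372, Cd244a 264 and 661, and Klrb1c 1061 and 929. Most of the wild-type sum thus came from NK markers that did not pass. The 8 measured myeloid and dendritic markers summed to 21103 and 30165 in knockout, against 6527 and 17813 in wild type. Within these sums Cst3, which did not pass, gave 5594 and 9345 in knockout, against 3557 and 6378 in wild type. Lyz2, with opposite signs on the arrays, gave 6721 and 5344, against 410 and 6963. Klre1 and Itga2 were not measured. The part of NK cell RNA in the differences of Itgax and Fcgr3, and of other cells in those of the other markers, was not tested.

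Of 12 B cell markers, 5 were measured and none passed (median -0.07), and the defining marker Cd79a was not measured. The adaptor Blnk gave 2.23 and 0.59, Ms4a1 (CD20) 1.28 and 0.38, and Cd22 -0.71 and -0.56. Of 15 T cell genes none passed (median 0.28): Cd28 gave 2.16 and 0.68, Cd8b1 1.11 and 0.93, and Cd5 -0.69 and -1.80. Of 10 erythroid and platelet genes, 2 were measured and none passed (median 0.55), haemoglobin gene Hba-a1 at 2.56 and 0.30 and Itga2b at -0.49 and -0.16. Blnk, Cd28, Hba-a1 and Lamp2 shared with Ly86 and Lyz2 a large ratio on array 1, a smaller one on array 2, and a wild-type sample of array 1 that was not well above background.

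**Figure D4:**
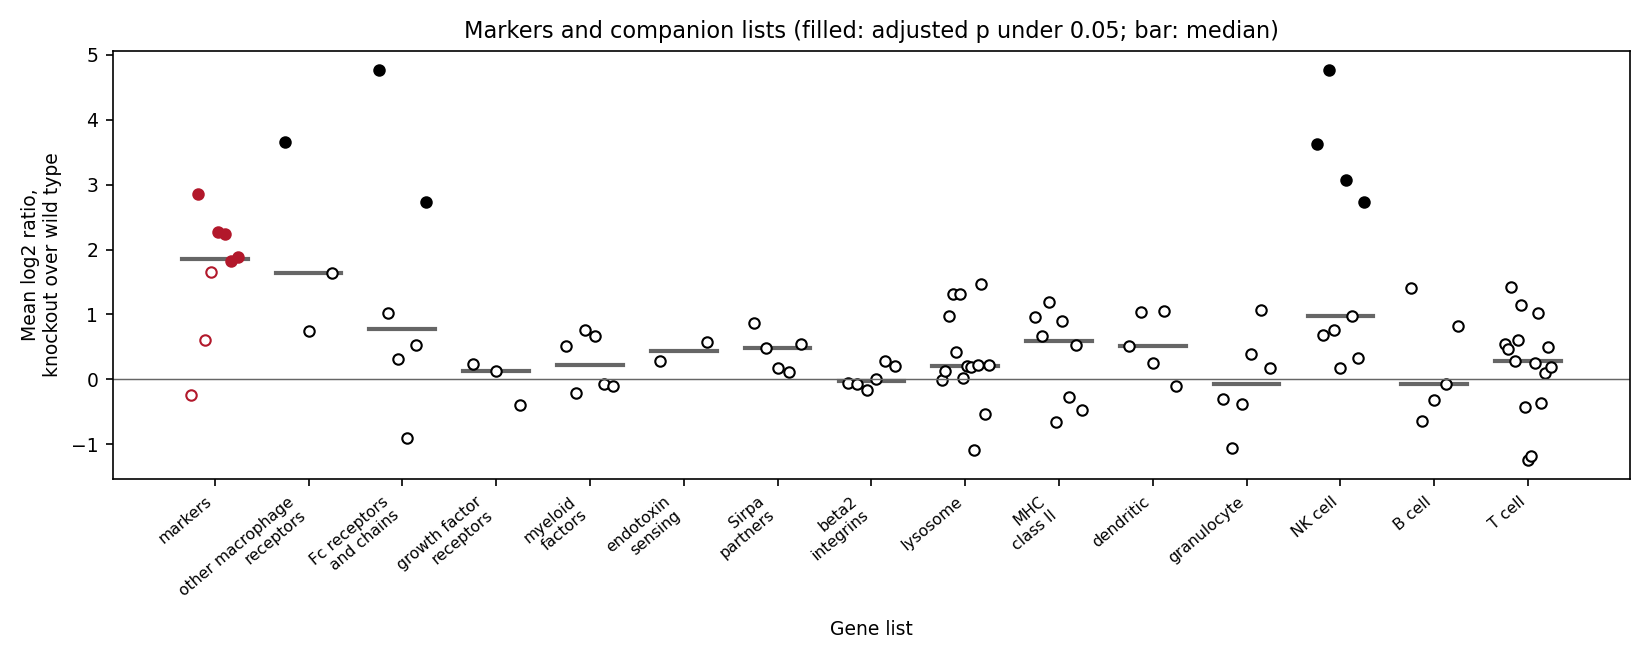
Mean log2 ratio over both arrays, knockout over wild type, of each measured gene of the markers (red) and of 14 companion lists (black); filled points passed adjusted p 0.05 over all genes and bars are medians. The markers' median is 1.85, and filled points occur only among the markers, other macrophage receptors, Fc receptors and chains, and NK cell genes; Fcer1g and Tyrobp stand in both the Fc receptor and the NK cell list.

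Outside the markers, the genes whose pair of ratios lay nearest to the markers' medians were Ikzf2, Lxn, Slc9a2, Id2 and Cldnd1, at distances of 0.0353 to 0.139 over the 2 arrays. Ikzf2 encodes Helios, a zinc finger factor of T cells, and Id2 an inhibitor of helix-loop-helix factors. Their ratios were 2.17 and 1.25 for Ikzf2, and 2.29 and 1.20 for Id2, the 1 gene of the 5 well above background in all samples.

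How many markers passed depended on the processing. All 8 measured markers kept the sign of their mean under each alternative that used both arrays and measured them. With no filter, with the mean of the kept probes and with the robust prior, the marker ratios were the reported ones. Their sign therefore could not differ there. The calls of Csf1r and Itgax remained in 4 of the 8 alternatives that measured them, with adjusted p between 6.31e-08 and 0.457 and between 9.19e-05 and 0.488. Those of Sirpa (0.00284 to 0.457) and Ly86 (0.000157 to 0.633) remained in 3 of 8, and that of Lyz2 (0.0115 to 0.662) in 2. Fcgr3 passed in 2 of 8 (0.0138 to 0.633), and Cst3 and Cd14 in none. With no background correction, with the scanner software's own log ratios, with equal spread on both arrays, or with no filter, no marker passed (limma); 5 or 6 of them then had an unadjusted p under 0.05. The ratio of Csf1r ranged between 1.36 and 3.94 and that of Sirpa between 0.96 and 3.79, lowest without background correction and highest with the scanner software's ratios. The fit gave all genes the same standard error of 0.50, so it ranks genes by mean ratio and takes no account of how far the arrays differ for a single gene such as Lyz2.

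**Figure D5:**
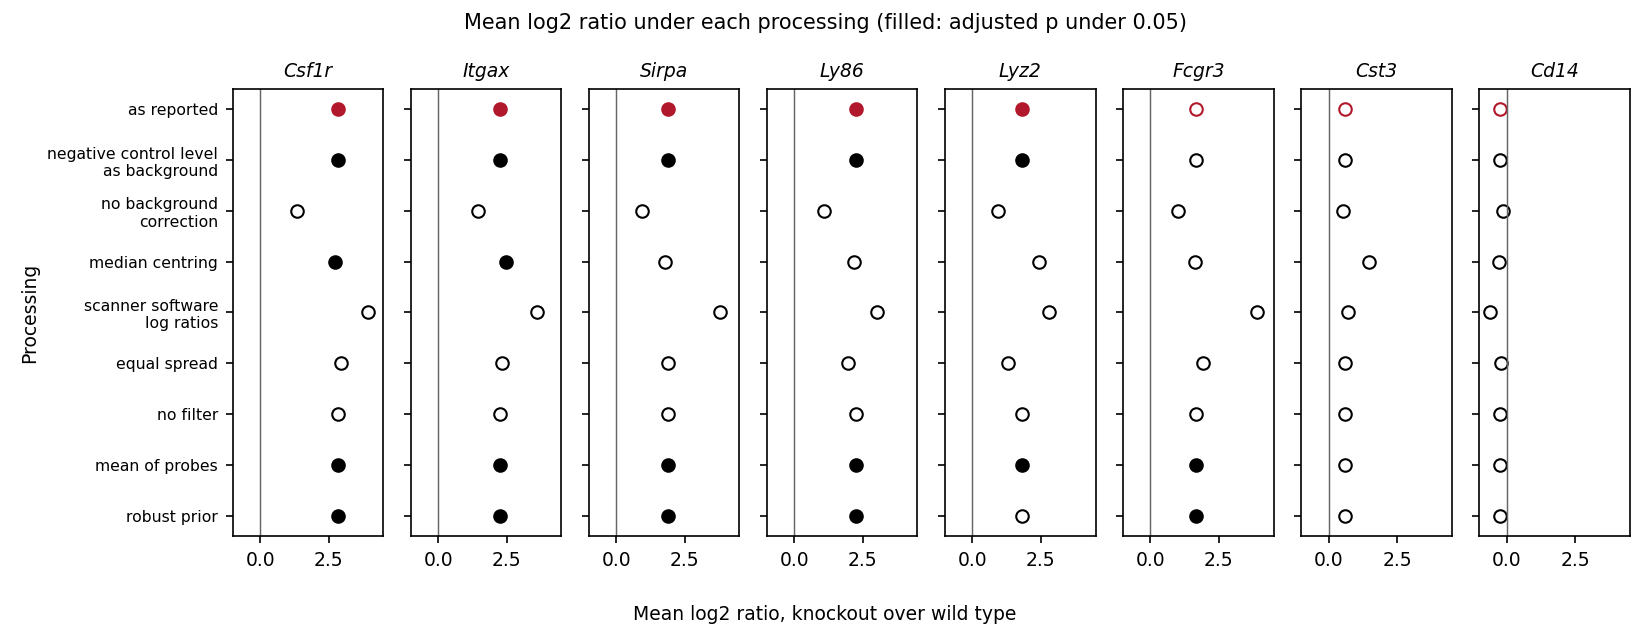
Mean log2 ratio, knockout over wild type, of the 8 measured markers as reported (red) and under 8 alternative ways of processing (black); filled points passed adjusted p 0.05. The condition that both genotypes be well above background on both arrays, which leaves Cst3 alone, is not drawn; every point of Csf1r, Itgax, Sirpa, Ly86, Lyz2, Fcgr3 and Cst3 lies right of 0.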

How the data were processed

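Linear amplification of the RNA (Agilent kit) and Kreatech ULS labelling are given per the labels' protocols. The submitters' processing notes name Agilent Feature Extraction 9.5.3.1. The deposited scanner files hold linear intensity values (mean signal and median local background per channel), not normalised, per the file headers. The same files give log10 ratios of Cy5 over Cy3 after the software's own background and dye correction, again per the file headers; the deposited value table matched these to within 0.005 at 45018 spots on each array, with column medians of 0. Both arrays were on 1 slide with a shared scan time, so slide and scan could not be tested as batches; days of sorting, amplification and labelling are not given in the sources used here.

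From the deposited intensities, log2 ratios were computed with limma 3.58.1 in R 4.3.3: normexp with offset 50, loess within arrays, control and flagged spots at weight 0 and then left out, and spots averaged per probe. Printed channel levels are after loess and Aquantile normalisation. The brightest kept probe stood for its gene. Mean ratios were tested two-sided with lmFit and eBayes, Benjamini-Hochberg over 9281 genes, threshold 0.05; the prior degrees of freedom were infinite. RefSeq's gene table (GRCm38.p6) named 24375 of 41174 gene probes by accession, 6301 by current symbol and 2426 by older symbol; 8072 retained the file's name. The fit was also run on simulated ratios that had the same spread on both arrays and in all genes. The measured ratios had SDs of 1.01 on array 1 and 0.41 on array 2, so that run does not bear on the calls reported here. Depth on arrays is limited by their number and by the signal over background.

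The markers and gene lists were chosen with earlier results of these data known. Named from each companion list were up to 4 passing genes by size of the mean ratio or, with none passing, up to 3 of equal sign on each array, taken in order of their weaker array; genes named as not measured, Spi1, Lyz1 and the other genes given beside a marker were chosen by their role. The 5 genes most alike were taken by Euclidean distance of the pair of ratios to the markers' medians. Alternatives changed the background correction, normalisation, source of ratios, filter, standing probe, variance prior and arrays used; the negative control level as background, and all alternatives of the 2-fold count on both arrays, were chosen after seeing the data.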

Additional observations from a re-analysis of the deposited data

How the results depend on the processing

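Of 9281 measured genes 138 passed as reported, 115 higher and 23 lower (83.3% higher). The count was 32 with no background correction, 63 with median centring in place of loess (62 higher, 98.4%; the median of all genes was then 0.68), 40 of 6195 with both channels well above background on both arrays (65% higher) and 219 with a robust variance prior. It was 0 with the scanner software's ratios, with equal spread and with no filter (limma; 575, 910 and 2478 genes at an unadjusted p under 0.05). Of the markers, 5 passed as reported, 2 (Csf1r and Itgax) with median centring, and 0 with no background correction, the scanner software's ratios, equal spread, no filter or the strict filter (6, 5, 5, 5 and 0 at an unadjusted p under 0.05). The strict filter left Cst3 alone, by construction. Where a setting removed calls otherwise, the prior degrees of freedom also differed from the reported infinite value, and the cause was not tested. They were 44.6 with median centring and 16.8 with no background correction. The scanner software's ratios gave 4.19, equal spread 4.76 and no filter 1.96. With no filter the ratios of Csf1r were those reported, 2.82 and 2.89, while its adjusted p was 0.457 (limma) in place of 7.20e-06.

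The median of the markers, 1.85 as reported, was 0.99 with no background correction, 1.99 with median centring (all genes 0.68), 3.31 with the scanner software's ratios and 0.60 with the strict filter; it lay between 1.25 and 2.20 with each array left out. Over 2-fold higher on both arrays were 3 markers as reported, 5 with the scanner software's ratios and 0 with the strict filter; on a single array it was 4 to 5. Lyz2 reversed to -0.38 without replicate 1 and was 4.03 without replicate 2. Of the other comparisons of a single marker over both arrays, 39 kept their side of the threshold, 24 lost the call and 2, both of Fcgr3, gained it. The 39 include all comparisons of Cst3 and Cd14, which never passed, and those of Fcgr3 that stayed outside the threshold. Calls made as reported remained in 4 of 8 alternatives for Csf1r and Itgax, 3 for Sirpa and Ly86, and 2 for Lyz2. Apart from median centring, which kept Csf1r and Itgax, the settings that kept calls left the ratios unchanged or nearly so. With 1 array left no test is possible. Each ratio pairs knockout with wild type on 1 array, so the fit is itself paired. Beyond that fit, no paired analysis was possible because the replicate numbers mark single ratios and leave no further block. Precision is limited by 2 arrays and by wild-type signals near background.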
